A study of Homo sapiens with 6 samples.

Results

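The 38 mRNAs described here encode the enzymes and transporters that carry glucose to lactate, the core proteins of oxygen sensing, and a group of genes known to be induced when oxygen is low. They were listed by name from these pathways, with earlier results of these data known, and make up 38 of the 58174 genes in the table. The study compared A549 cells, an established human lung adenocarcinoma line, without (Ctrl, parental) and with a CRISPR/Cas9 deletion of the microRNA gene MIR21 (MIR21-KO). Each group had 3 polyA RNA-seq libraries of cells harvested 48 h after seeding. MIR21-KO cells were grown from single sorted cells, whereas Ctrl cells were the unsorted parental population, and how many clones stand behind the 3 libraries is not stated, so differences between clones and effects of the deletion cannot be told apart. The labels name no hypoxic treatment for either group, and the study describes its libraries as independent samples without saying whether cultures or clones were separate, so p-values measure the spread between these libraries.

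In glycolysis, glucose enters through transporters of the SLC2A family, is phosphorylated by hexokinases, split into triose phosphates and oxidised to pyruvate, which lactate dehydrogenase reduces to lactate for export through the SLC16A carriers. Oxygen is sensed by the EGLN prolyl hydroxylases, which mark the alpha subunits HIF1A and EPAS1 for destruction. When oxygen is low these subunits escape, bind a short DNA element and raise the transcription of many glycolytic genes, of the growth factor VEGFA and of pH regulators such as CA9. HIF activity is set mainly at the protein level, which mRNA measurements do not show.

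Values are FPKM, fragments scaled by gene length and library size. The library size implied by the values was 0.950, 0.984 and 1.030 times the recovered reads in MIR21-KO replicates 1 to 3. In Ctrl it was 1.012 to 1.014 times. Fold changes are differences of log2(FPKM + 0.1), MIR21-KO minus Ctrl, from a limma fit over the 16006 genes that averaged 0.5 FPKM or more. A gene is said to rise or fall when its Benjamini-Hochberg adjusted p (FDR) was under 0.01. Libraries held 10631667 to 14345209 recovered reads. MIR21 itself was listed at 0 in each library, Ctrl included, so this table does not check the deletion. PolyA libraries do not capture short non-polyadenylated RNAs, and MIR21 lies within the gene VMP1, but the cause of the 0 was not tested. Of the 6 epithelial markers of A549 cells, KRT7, KRT8, KRT18 and KRT19 were abundant in all libraries, EPCAM reached at most 1.65 FPKM, and CDH1 fell from 7.63 to 8.79 FPKM in Ctrl to 2.72 to 3.02 in MIR21-KO (log2 fold change -1.48, FDR = 0.000175), and its part in the results was not tested. The 7 fibroblast markers summed to 5.60 to 5.91 FPKM in Ctrl and 5.48 to 7.82 in MIR21-KO, most of it COL1A1 and LUM. COL3A1, too scarce to be tested, stood at 0.0577 to 0.191 FPKM in Ctrl and 0.540 to 0.634 in MIR21-KO without overlap, and its part in the results was not tested. The 5 endothelial markers summed to at most 0.154 FPKM, and of the leukocyte markers reported here CD3E had no read, PTPRC and LYZ reached at most 0.0175 and 0.0832 FPKM, and CD14 stood at 3.19 to 5.10 FPKM.

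Between Ctrl and MIR21-KO cells these mRNAs differed in both directions. In such bulk libraries, fewer cells that express a gene and less RNA per cell cannot be told apart. Of the 38 mRNAs, 35 were abundant enough to be tested, 9 rose, 8 fell and 18 were not called. The risers, SLC2A1, SLC2A3, SLC16A3, HK1, EPAS1, EGLN1, VEGFA, NDRG1 and P4HA2, were 25.7% of those tested, where 7.66% of all tested genes rose. The fallers, PFKFB3, GPI, PGK1, LDHA, LDHB, CA12, ADM and BNIP3, were 22.9%, where 8.38% of all tested genes fell. Ctrl and MIR21-KO libraries did not overlap in 29 of 35 (82.9%), against 48.1% of all tested genes. These shares were not matched for abundance, nor were the later comparisons with all tested genes. In a fit of the 7551 genes averaging at least 5 FPKM, 765 rose and 1188 fell. Of the 38 mRNAs, those averaging below 5 FPKM, the faller ADM included, were not in that fit. Among the others 9 rose and 7 fell. The median log2 fold change was 0.09 over the 35 mRNAs and -0.0174 over all tested genes. By role, 3 of 4 tested transporter mRNAs rose and none fell, while of the 16 tested mRNAs of the chain from hexokinase to pyruvate kinase, PFKFB3 and PFKFB4 included, 1 rose and 3 fell, with a median of -0.28.

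**Figure D1:**
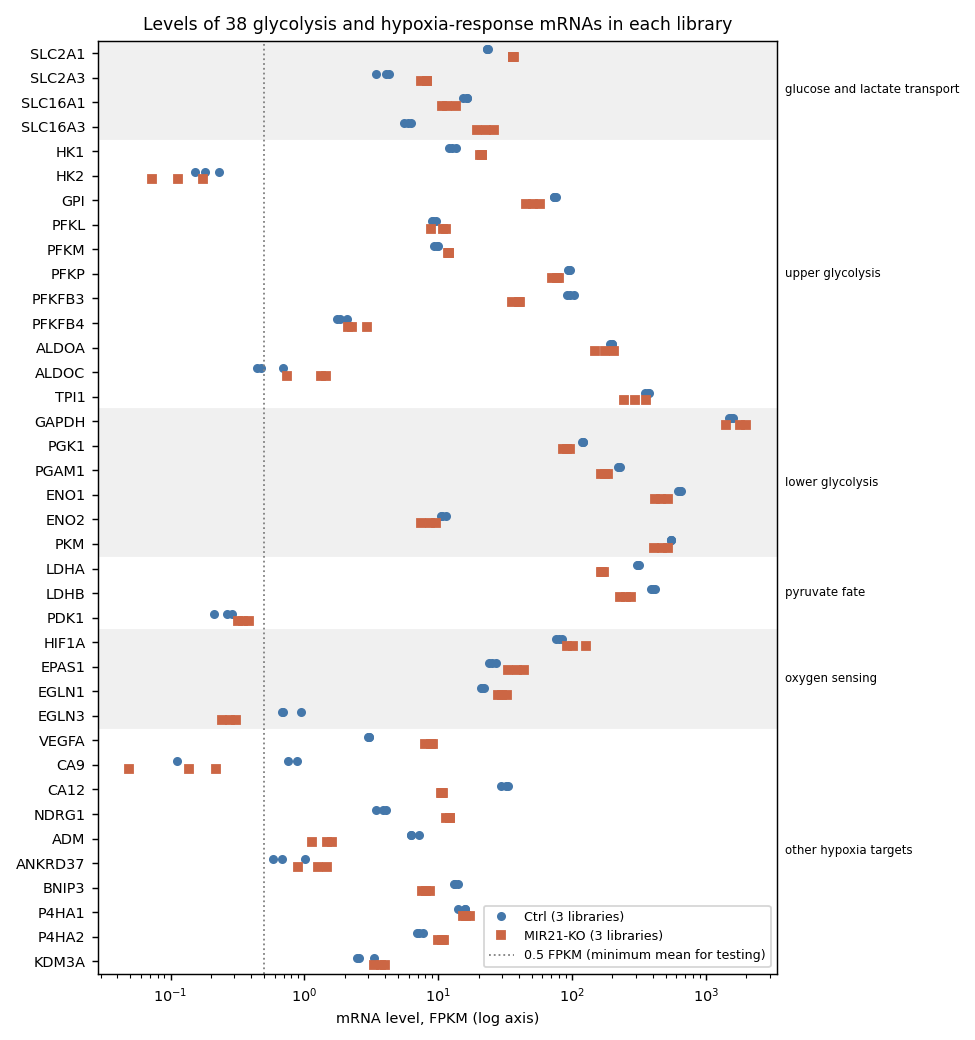
Level of each of the 38 mRNAs in FPKM on a log axis, with circles for the 3 Ctrl and squares for the 3 MIR21-KO libraries, ordered by role. The levels span from HK2 and CA9, left of the dotted line at 0.5 FPKM in most libraries, to GAPDH at 1404 to 1993 FPKM, and the gap between circles and squares is wide for SLC16A3, PFKFB3, CA12, NDRG1 and ADM.

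At the entry to the pathway, the glucose transporter mRNAs rose. SLC2A1 (ENSG00000117394, chromosome 1, 42925375 to 42959176), which encodes the widespread transporter GLUT1, measured 23.3, 23.4 and 23.3 FPKM in Ctrl replicates 1 to 3 and 36.0, 36.9 and 36.0 FPKM in MIR21-KO. The groups were far apart and each was tight, and the log2 fold change was 0.63 ± 0.061 (SE, FDR = 0.000657, limma). SLC2A3 (ENSG00000059804, chromosome 12, 7919230 to 7936275), which encodes the high-affinity transporter GLUT3, stood at 4.25, 3.41 and 4.10 FPKM in Ctrl and at 8.20, 7.39 and 8.30 in MIR21-KO. Its level was 2.03-fold higher (log2 fold change 1.01 ± 0.11 SE, FDR = 0.00125), and it remained the scarcer mRNA in all libraries.

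Hexokinase phosphorylates glucose and traps it in the cell. HK1 (ENSG00000156515, chromosome 10, 69269984 to 69401884), the main hexokinase mRNA of the pair examined, rose from 13.6, 12.004 and 12.6 FPKM in Ctrl to 21.3, 21.1 and 20.4 in MIR21-KO (log2 fold change 0.72 ± 0.075 SE, FDR = 0.00092, limma). HK2, the isozyme often induced in tumours, had only 6 to 19 reads per library (0.0726 to 0.229 FPKM) and was not tested. With the replicate number as a block, HK1 had an FDR of 0.0117 and SLC2A1 one of 0.0136.

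Between hexokinase and pyruvate kinase, the largest called change was in a regulator. PFKFB3 (ENSG00000170525, chromosome 10, 6144934 to 6254644) makes fructose 2,6-bisphosphate, the strongest activator of phosphofructokinase. It measured 102.7, 91.9 and 97.1 FPKM in Ctrl and 35.6, 41.0 and 40.1 FPKM in MIR21-KO, 2.50-fold lower (log2 fold change -1.32 ± 0.087 SE, FDR = 0.000179, limma). The MIR21-KO libraries all lay far below the lowest Ctrl library. Its relative PFKFB4, at 1.75 to 2.09 FPKM in Ctrl and 2.13 to 2.93 in MIR21-KO, was not called (log2 fold change 0.35, FDR = 0.148).

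GPI (ENSG00000105220, chromosome 19, 34359480 to 34402413), which turns glucose 6-phosphate into fructose 6-phosphate, fell from 73.0, 75.2 and 73.7 FPKM to 57.3, 50.9 and 45.3 FPKM (log2 fold change -0.54 ± 0.098 SE, FDR = 0.00765, limma). The MIR21-KO libraries differed more among themselves than the Ctrl libraries did. Of the 3 phosphofructokinase mRNAs none was called. PFKP, the most abundant, measured 93.8 to 96.0 FPKM in Ctrl and 71.2 to 79.4 in MIR21-KO (FDR = 0.0192). PFKM stood at 9.33 to 9.89 and 11.8 to 12.1 FPKM (FDR = 0.0155), and PFKL overlapped between groups (FDR = 0.36). The aldolase mRNA ALDOA, at 191.4 to 199.6 FPKM in Ctrl and 147.6 to 205.8 in MIR21-KO, and the triose phosphate isomerase mRNA TPI1, at 352.2 to 377.4 and 244.2 to 355.7 FPKM, were not called either. ALDOC was scarce, with 14 to 53 reads per library (log2 fold change 0.96, FDR = 0.0602).

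Of the 6 mRNAs of the lower chain, PGK1 was the one that was called. PGK1 (ENSG00000102144, chromosome X, 77910739 to 78129296), whose enzyme makes the first ATP of glycolysis, fell from 119.8, 118.5 and 120.6 FPKM in Ctrl to 95.9, 91.0 and 84.8 in MIR21-KO (log2 fold change -0.40 ± 0.077 SE, FDR = 0.0089, limma), a value close to the threshold. The enolase mRNA ENO1 stood at 621.6 to 650.4 FPKM in Ctrl and at 415.1 to 517.1 in MIR21-KO, with no overlap (log2 fold change -0.46, FDR = 0.0188). PGAM1 (phosphoglycerate mutase) had a log2 fold change of -0.36 (FDR = 0.0158), ENO2 of -0.34 (FDR = 0.0544) and the pyruvate kinase mRNA PKM of -0.24 (FDR = 0.142). Each of these had lower values in all MIR21-KO libraries than in any Ctrl library.

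GAPDH, a common reference mRNA in expression assays, was the most abundant of the 38. It measured 1475, 1584 and 1542 FPKM in Ctrl and 1993, 1794 and 1404 in MIR21-KO, so the groups overlapped (log2 fold change 0.16 ± 0.15 SE, FDR = 0.451, limma; 95% interval -0.20 to 0.51). The interval spans 0, and the value was 0.05 (FDR = 0.791) without MIR21-KO replicate 1 and 0.30 (FDR = 0.0261) without MIR21-KO replicate 3. The spread within MIR21-KO was shared by other enzymes: MIR21-KO replicate 3 held the lowest of the MIR21-KO values for 15 of 17 mRNAs of the chain. Together these 17 mRNAs took 1.71%, 1.76% and 1.75% of the reads of Ctrl replicates 1 to 3 and 1.63%, 1.52% and 1.35% of those of MIR21-KO replicates 1 to 3. The part of that library in the results was not tested as a cause. Without it 9 of the 35 mRNAs rose and 10 fell. Over all 16006 tested genes, 1599 rose and 1801 fell without it, where 1226 and 1342 did with all libraries.

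**Figure D2:**
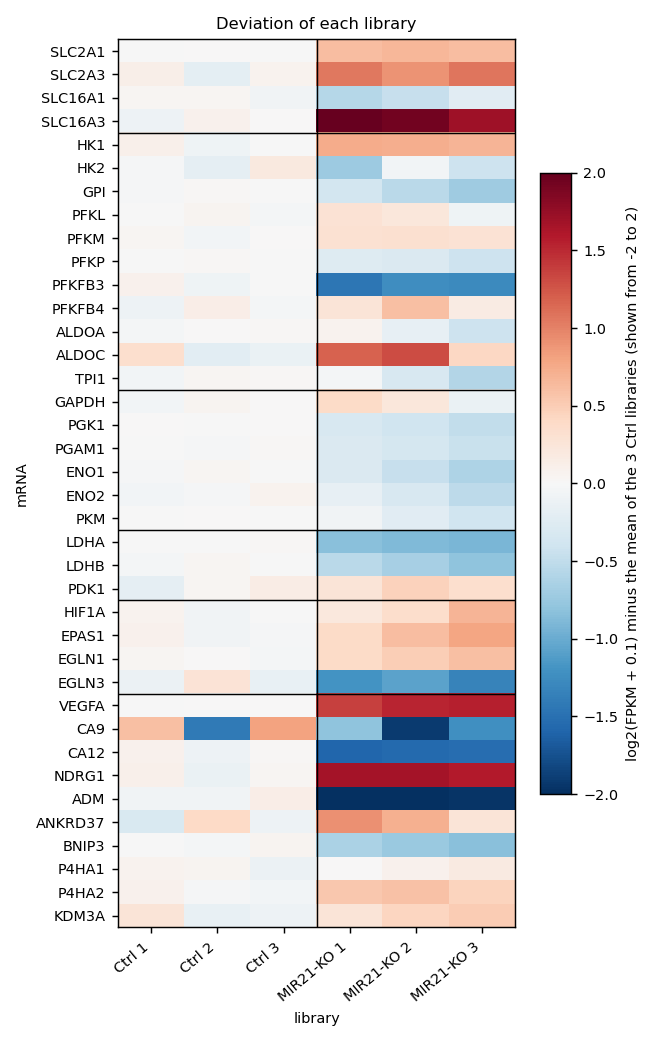
Deviation of each library (columns) from the mean of the 3 Ctrl libraries on the log2(FPKM + 0.1) scale for the 38 mRNAs (rows, grouped by role), with colours limited to -2 and 2. Ctrl columns are pale except for CA9 and a few scarce mRNAs, and within MIR21-KO most glycolytic enzymes are lowest in replicate 3.

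At the end of the pathway both lactate dehydrogenase mRNAs fell while the mRNA of the lactate exporter rose. LDHA (ENSG00000134333, chromosome 11, 18394388 to 18408425) encodes the subunit that favours making lactate from pyruvate, and measured 306.6, 308.4 and 314.2 FPKM in Ctrl and 173.3, 167.3 and 164.8 in MIR21-KO. Its level was 1.84-fold lower (log2 fold change -0.88 ± 0.075 SE, FDR = 0.00043, limma), with a gap between the groups many times the spread within them. With the replicate block its FDR was 0.0101. LDHB (ENSG00000111716, chromosome 12, 21635342 to 21757857), whose subunit is better suited to the reverse reaction, went from 391.2, 412.3 and 400.2 FPKM to 277.2, 253.1 and 229.4 (log2 fold change -0.67 ± 0.098 SE, FDR = 0.00331).

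SLC16A3 (ENSG00000141526, chromosome 17, 82228397 to 82261129) encodes MCT4, the low-affinity carrier of lactate-exporting cells. It stood at 5.55, 6.30 and 5.98 FPKM in Ctrl and at 26.2, 22.8 and 19.5 FPKM in MIR21-KO, 3.84-fold higher (log2 fold change 1.92 ± 0.12 SE, FDR = 0.00016, limma). Even the lowest MIR21-KO library was well above all Ctrl libraries. SLC16A1, which encodes the more widespread carrier MCT1, had 15.2 to 16.4 FPKM in Ctrl and 10.75 to 13.5 in MIR21-KO and did not pass the threshold (log2 fold change -0.42, FDR = 0.0208), but it did without MIR21-KO replicate 3 (FDR = 0.00346). PDK1, the kinase that shuts pyruvate out of the mitochondrial dehydrogenase, had 40 to 70 reads per library (0.211 to 0.384 FPKM) and was not tested.

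Because several steps are served by related genes, the share of each member in the summed FPKM of its family was compared over libraries in 12 families. With 3 libraries a side, the exact two-sided permutation test cannot give a p below 0.1, and this smallest p was obtained for 11 families (adjusted p = 0.109), so no share passed a threshold. SLC16A3 made up 27.2% ± 1.52 (SD, n = 3) of the SLC16A1 and SLC16A3 sum in Ctrl libraries and 65.5% ± 6.02 in MIR21-KO libraries (exact p = 0.1). MCT4 mRNA was thus the minor carrier mRNA in each Ctrl library and the major one in each MIR21-KO library. PFKP made up 83.4% ± 0.223 of the phosphofructokinase mRNAs in Ctrl and 77.4% ± 0.214 in MIR21-KO, and LDHB 56.4% ± 0.674 and 60.0% ± 1.68 of the lactate dehydrogenase mRNAs. For CA9 the libraries overlapped (exact p = 0.6).

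**Figure D3:**
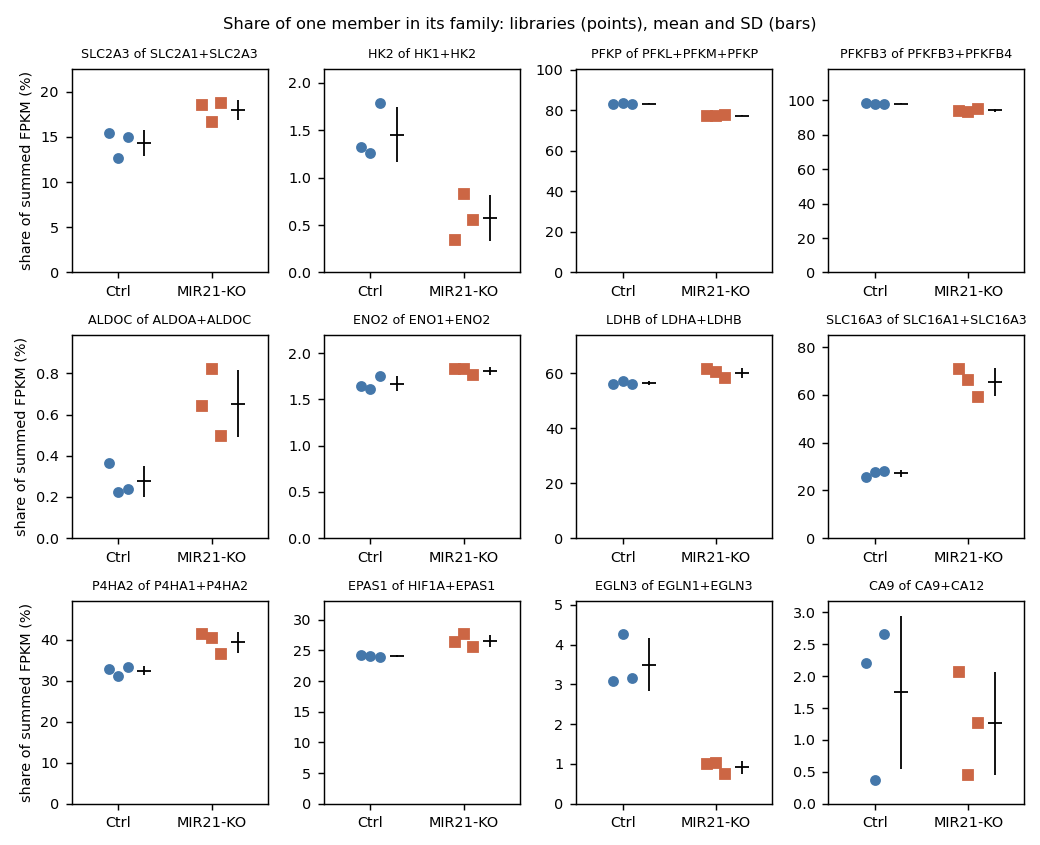
Share of a named member in the summed FPKM of its family (percent, axes from 0) for 12 families, with a point for each library and the mean and SD (n = 3) beside them. Libraries overlap only for CA9, and SLC16A3 shows the largest shift, from 25.4% to 28.3% in Ctrl to 59.0% to 70.9% in MIR21-KO.

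Among the oxygen-sensing mRNAs, a HIF alpha subunit and a prolyl hydroxylase rose. EPAS1 (ENSG00000116016, chromosome 2, 46293667 to 46386703), which encodes HIF-2 alpha, measured 27.0, 24.1 and 25.1 FPKM in Ctrl and 33.2, 38.8 and 43.9 in MIR21-KO (log2 fold change 0.60 ± 0.11 SE, FDR = 0.00909, limma). HIF1A, the more abundant subunit mRNA, stood at 84.4, 76.0 and 79.9 FPKM in Ctrl and at 92.3, 101.8 and 127.8 in MIR21-KO. The libraries did not overlap, yet HIF1A was not called (log2 fold change 0.41 ± 0.13 SE, FDR = 0.0523). It was called after removal of the trends that GC content and gene length leave in a library (log2 fold change 0.58, FDR = 0.000275).

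EGLN1 (ENSG00000135766, chromosome 1, 231363751 to 231425044), which encodes PHD2, the main oxygen sensor of most cells, rose from 21.8, 21.3 and 20.8 FPKM to 27.9, 29.9 and 32.5 FPKM (log2 fold change 0.49 ± 0.079 SE, FDR = 0.0045, limma). EGLN3, a hydroxylase gene that is itself induced by HIF, was close to the lower limit, at 0.694, 0.948 and 0.676 FPKM in Ctrl and 0.279, 0.311 and 0.241 in MIR21-KO. All MIR21-KO values, which rest on 23 to 28 reads, were below the Ctrl values, but the log2 fold change of -1.20 ± 0.33 (SE) was not called (FDR = 0.0333). With voom, a limma method for counts, on the recovered reads it was (FDR = 0.00176).

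Of 9 tested genes known as hypoxia targets, 3 rose (33.3%, against 7.66% of all tested genes), 3 fell (33.3%, against 8.38%) and 3 were not called. VEGFA (ENSG00000112715, chromosome 6, 43770184 to 43786487), the growth factor that drives vessel formation, measured 3.01, 3.06 and 3.045 FPKM in Ctrl and 7.99, 8.88 and 9.09 in MIR21-KO, 2.85-fold higher (log2 fold change 1.48 ± 0.090 SE, FDR = 0.000138, limma). NDRG1 (ENSG00000104419, chromosome 8, 133237171 to 133302022), a stress- and differentiation-related gene, went from 4.05, 3.45 and 3.88 to 12.2, 12.2 and 11.5 FPKM, 3.16-fold higher (log2 fold change 1.64 ± 0.092 SE, FDR = 0.000105). Both were tight within each group. P4HA2 (ENSG00000072682, chromosome 5, 132191838 to 132295315), a collagen prolyl hydroxylase subunit, rose less, from 7.75, 7.19 and 6.99 FPKM to 10.7, 10.96 and 9.93 FPKM (log2 fold change 0.52 ± 0.083 SE, FDR = 0.00441).

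The largest fall among the 38 mRNAs was that of ADM (ENSG00000148926, chromosome 11, 10304680 to 10307397), the precursor of the vasodilator peptide adrenomedullin. It measured 6.27, 6.30 and 7.24 FPKM in Ctrl and 1.49, 1.14 and 1.62 in MIR21-KO, 4.67-fold lower (log2 fold change -2.16 ± 0.15 SE, FDR = 0.000239, limma), with 38 to 57 reads in each MIR21-KO library. CA12 (ENSG00000074410, chromosome 15, 63321378 to 63382161), a membrane carbonic anhydrase that helps to set the pH outside the cell, went from 33.4, 29.3 and 32.1 to 10.4, 10.7 and 10.9 FPKM, 2.96-fold lower (log2 fold change -1.56 ± 0.076 SE, FDR = 6.44e-05). BNIP3 (ENSG00000176171, chromosome 10, 131966455 to 131982013), which promotes the removal of mitochondria, fell from 13.4, 13.1 and 14.0 to 8.66, 8.04 and 7.56 FPKM (log2 fold change -0.74 ± 0.081 SE, FDR = 0.00114).

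The remaining targets were not called. P4HA1, at 14.0 to 15.95 FPKM in Ctrl and 15.3 to 17.4 in MIR21-KO, had a log2 fold change of 0.09 with a 95% interval of -0.12 to 0.30. The histone demethylase mRNA KDM3A (log2 fold change 0.40, FDR = 0.0822) and ANKRD37 (0.62, FDR = 0.137) had positive values that did not pass, and ANKRD37 rested on 19 to 52 reads per library. CA9, a carbonic anhydrase widely used as a marker of hypoxia, had 1 to 20 reads per library and was not tested, at 0.753, 0.111 and 0.876 FPKM in Ctrl and 0.220, 0.0489 and 0.138 in MIR21-KO.

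**Figure D4:**
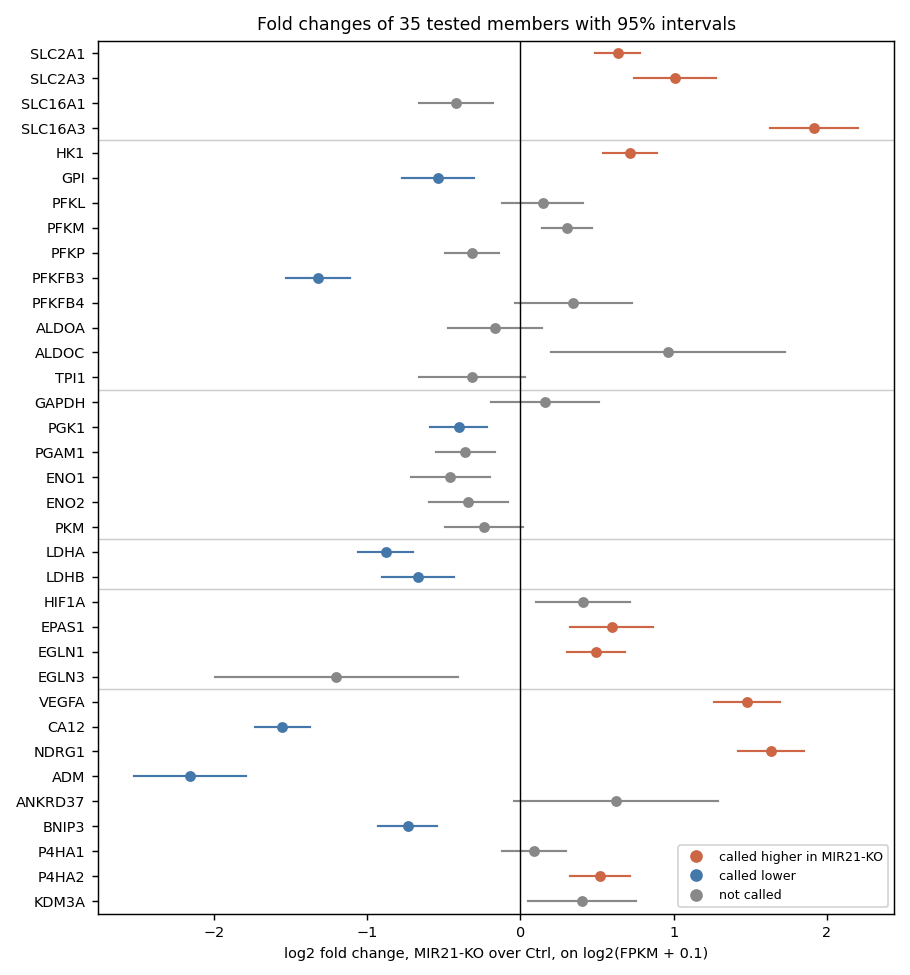
Log2 fold changes (MIR21-KO over Ctrl, on log2(FPKM + 0.1)) of the 35 tested mRNAs with 95% intervals from the limma fit, grouped by role and coloured by call. Rises reach 1.92 for SLC16A3 and falls reach -2.16 for ADM, while most enzymes of the chain lie between -0.5 and 0.5.

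The calls were not equally firm. Of the 17 called mRNAs, 7 kept their call in each alternative analysis that gave a value: SLC2A3, SLC16A3, VEGFA, NDRG1, PFKFB3, CA12 and ADM. Another 7 lost it on leaving out a single library, namely GPI, PGK1, LDHB, BNIP3, EPAS1, EGLN1 and P4HA2. Without any of the Ctrl libraries or MIR21-KO replicate 2, FDRs were 0.0335 to 0.0389 for GPI, 0.0404 to 0.0485 for PGK1, 0.0198 to 0.0239 for LDHB, 0.0284 to 0.0429 for EPAS1, 0.0221 to 0.028 for EGLN1 and 0.0158 to 0.0289 for P4HA2. P4HA2 was also lost without MIR21-KO replicate 1 (FDR = 0.0106), and BNIP3 without Ctrl replicate 3 (0.0101) or MIR21-KO replicate 2 (0.0102). Among the uncalled, ENO1 was called without MIR21-KO replicate 1 (FDR = 0.00662) and PGAM1 without MIR21-KO replicate 3 (FDR = 0.00877). With the GC and length trends removed, PGK1 was lost (FDR = 0.0227), whereas PFKP (0.00077), TPI1 (0.00181), PGAM1 (0.00137), ENO1 (0.000669), ENO2 (0.00352) and SLC16A1 (0.00949) were called lower and PFKM (0.00626) and HIF1A (0.000275) higher. Without the trend and robust options of limma, GPI, PGK1, EPAS1, EGLN1 and P4HA2 were lost, with FDRs of 0.0104 to 0.0209. None of the 35 changed its sign in any of these analyses.

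**Figure D5:**
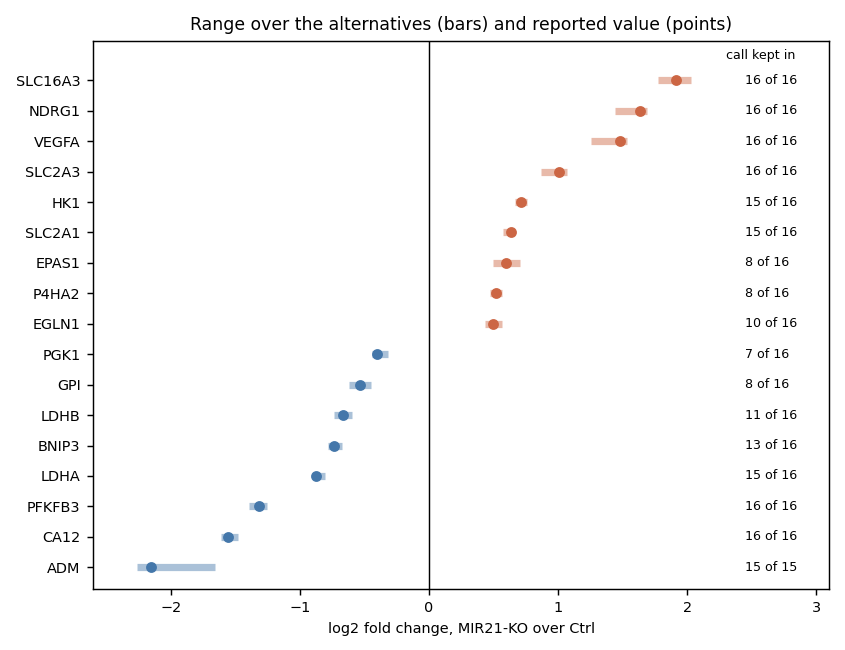
Reported log2 fold change (points) and its range over the alternative analyses (bars) for the 17 called mRNAs, with the number of alternatives in which the call was kept on the right. Bars stay on the side of 0 of their point, and PGK1 kept its call in the fewest, 7 of 16.

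The promoters were examined for the core of the hypoxia response element, ACGTG or GCGTG on either strand, in windows from 250 bases before to 50 after the start of transcription given by RefSeq (GRCh38.p14), taking the most upstream start of each gene, which need not be the start used in A549 cells. A window was found for 34 of the 38 genes, not for SLC2A3, SLC16A1, VEGFA and NDRG1. At least 1 core was present in 26 of 34 (76.5%), in 64.1% of the windows of tested genes and in 48.4% of all 27305 windows. It was present for 8 of 8 mRNAs that fell, for 3 of 6 that rose and for 13 of 17 not called. The only core of LDHB lay after the start. ACGTG alone was present for 4 of 8 that fell, 1 of 6 that rose and 7 of 17 not called. Among the windows of tested genes 27.0% held it. A match is a description of the sequence and does not show that a factor binds. To show what distinguishes densely and sparsely equipped promoters, the stretches around the cores that lie before the start are given 5′ to 3′ on the gene's strand for each called gene that has any, with the cores in capitals (CACGC and CACGT are cores on the other strand, and CACGTG reads as a core on both).
LDHA (chr11:18394348-18394524, plus strand): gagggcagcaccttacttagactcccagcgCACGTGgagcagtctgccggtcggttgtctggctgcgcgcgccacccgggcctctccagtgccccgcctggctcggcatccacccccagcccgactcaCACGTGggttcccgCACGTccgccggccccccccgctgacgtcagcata
PGK1 (chrX:78104007-78104099, plus strand): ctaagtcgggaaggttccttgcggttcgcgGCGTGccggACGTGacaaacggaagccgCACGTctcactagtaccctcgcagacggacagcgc
BNIP3 (chr10:131981993-131982096, minus strand): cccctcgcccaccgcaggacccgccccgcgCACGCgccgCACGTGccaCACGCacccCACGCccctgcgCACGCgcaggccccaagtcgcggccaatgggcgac
GPI (chr19:34364800-34364864, plus strand): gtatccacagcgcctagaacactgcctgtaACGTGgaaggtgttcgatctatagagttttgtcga
PFKFB3 (chr10:6144723-6144787, plus strand): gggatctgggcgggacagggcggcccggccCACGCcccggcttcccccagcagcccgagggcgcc
CA12 (chr15:63382046-63382096, minus strand): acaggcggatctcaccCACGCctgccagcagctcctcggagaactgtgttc
ADM (chr11:10304942-10305006, plus strand): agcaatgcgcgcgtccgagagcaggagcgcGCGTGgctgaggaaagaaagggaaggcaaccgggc
EPAS1 (chr2:46297260-46297324, plus strand): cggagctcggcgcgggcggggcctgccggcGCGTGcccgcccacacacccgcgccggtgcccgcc
EGLN1 (chr1:231422288-231422330, minus strand): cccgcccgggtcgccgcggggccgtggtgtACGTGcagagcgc

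In these stretches LDHA had 5 cores, all ACGTG, and BNIP3 had 6, whereas ADM and CA12, with larger falls, had 1 each. SLC16A3, the mRNA with the largest rise, had none in its window. VEGFA, NDRG1 and SLC2A3, which also rose, had no window, and whether the number of cores goes with the fold change was not tested.

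Because the deleted gene makes a repressor of mRNAs, the longest annotated 3′ UTR of each gene (GENCODE 29) was searched for matches to the seed of miR-21-5p, bases 2 to 8, shown in capitals in the mature sequence from RefSeq (chr17:59841273-59841294, plus strand).
hsa-miR-21-5p: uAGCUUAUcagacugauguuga

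A site of 7 or 8 bases was present in 9 of the 38 mRNAs, all of them among the 35 tested. It was present in 1765 of the 11659 tested genes with a 3′ UTR (15.1%). The longest annotated 3′ UTR need not be the one used in A549 cells, and it was taken from any transcript with an annotated stop codon. The KDM3A match, at chr2:86479083-86479089 on the plus strand, lies well before the end of that gene at 86492716. PGK1 and EGLN1 had the longest type (ATAAGCTA, an 8mer), CA12, BNIP3, PFKM, ANKRD37 and KDM3A the 7mer ATAAGCT, and PGAM1 and P4HA1 the 7mer TAAGCTA. The sites of the 4 called mRNAs among them are given here with the match in capitals, 5′ to 3′ on the gene's strand, with the coordinates of the match.
PGK1 (chrX:78128243-78128250, plus strand): cttgtgtgcatATAAGCTAgaacagtataa
EGLN1 (chr1:231366183-231366190, minus strand): acaggaggaagATAAGCTActaattgaaaa
CA12 (chr15:63323379-63323385, minus strand): tccaaaggaaaATAAGCTgatagactcaat
BNIP3 (chr10:131968659-131968665, minus strand): agtccccttgcATAAGCTctaaccacagtg

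Of these 4, EGLN1 rose and PGK1, CA12 and BNIP3 fell. SLC16A3, NDRG1, VEGFA, SLC2A3, HK1, SLC2A1 and P4HA2, the other risers apart from EPAS1, had no match of 6 or more bases, and EPAS1 had a 6mer (TAAGCT). Over the tested genes with a 3′ UTR the median log2 fold change was -0.043 for those with a site of 7 or 8 bases and -0.03 for those without any match. By type it was 0.0 for ATAAGCTA, -0.036 for ATAAGCT and -0.091 for TAAGCTA. Differences between these medians were not tested.

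Another 95 genes of the same pathways were listed, of which 75 were tested, 13 rose (17.3%) and 12 fell (16.0%), where 7.66% and 8.38% of all tested genes did. Among further isozymes, transporters and related genes listed with glycolysis, not all of them glycolytic enzymes, 1 of 14 tested rose (7.1%, near the share of all tested genes). In this list 4 fell (28.6%). SLC2A12, which encodes the transporter GLUT12, increased from 1.41 to 1.95 FPKM in Ctrl to 7.87 to 10.1 in MIR21-KO (log2 fold change 2.33, FDR = 0.000211, limma). HKDC1, a hexokinase-like gene, fell from 20.8 to 22.8 FPKM to 5.77 to 6.41 (log2 fold change -1.83, FDR = 4.88e-05), and the transporter SLC2A8 (-0.73, FDR = 0.00998) and the mitochondrial phosphatase PGAM5 (-0.79, FDR = 0.000456) fell as well. HKDC1 was thus above HK1 in each Ctrl library and below it in each MIR21-KO library.

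Around the pyruvate dehydrogenase complex, which passes pyruvate to the mitochondrial citrate cycle, 3 of 12 tested mRNAs rose and 3 fell (25.0% each way, against 7.66% and 8.38% of all tested genes). Those that fell encode parts of the complex itself, PDHX (log2 fold change -0.77, FDR = 0.00111, limma), DLAT (-0.75, FDR = 0.00347) and DLD (-0.52, FDR = 0.00295). Those that rose were MPC1, a subunit of the mitochondrial pyruvate carrier (1.28, FDR = 0.00329), the activating phosphatase PDP1 (1.13, FDR = 0.00268) and the inhibiting kinase PDK2 (0.58, FDR = 0.00751). In the pentose phosphate pathway and gluconeogenesis limma called 0 of 10 tested mRNAs.

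Of 9 further oxygen-sensing mRNAs tested, none rose and 1 fell (11.1%, near the 8.38% of all tested genes that fell), namely ELOC, a subunit of the ligase complex that destroys HIF alpha (log2 fold change -0.56, FDR = 0.00754, limma). Of 30 further reported hypoxia targets tested, 9 rose (30%, against 7.66% of all tested genes) and 4 fell (13.3%, against 8.38%). The largest rises were those of BHLHE41, a transcriptional repressor, from 0.722 to 1.25 FPKM to 6.97 to 7.40 (log2 fold change 2.70, FDR = 0.000295), ANGPTL4, an inhibitor of lipoprotein lipase, from 3.67 to 4.95 to 17.8 to 19.9 FPKM (2.16, FDR = 0.000125), and the secreted glycoprotein STC1 (1.55, FDR = 0.000986). The largest falls were those of the lipid droplet protein HILPDA (-1.19, FDR = 0.000774), STC2 (-0.96, FDR = 0.000503) and IGFBP3 (-0.85, FDR = 0.000696).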

How the data were processed

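The sample titles gave group and replicate. Per the labels, libraries were strand-specific, made from oligo(dT)-selected RNA and run on an Illumina HiSeq. The submitters' processing notes name cutadapt 1.14, HISAT2 2.1.0, SAMtools 1.5, featureCounts 1.5.3, edgeR 3.18.1 and hg38; whether counting used the strand, and how shared reads were treated, is not given in the sources used here. The authors deposited FPKM values and gene lengths for 58174 genes, with their own fold changes, p-values and FDRs, which were not used. FPKM times length gave whole reads within 0.01 for 100% of values. A listed 0 allows up to 3 reads, which is 0.219 to 0.279 FPKM on a gene of 1 kb, and these limits cover counting error only.

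For 16006 genes averaging 0.5 FPKM or more, log2(FPKM + 0.1) was tested two-sided in limma 3.58.1, run under R 4.3.3 (eBayes with trend and robust fitting, no covariate, Benjamini-Hochberg over all genes tested, FDR under 0.01), which understates changes of scarce genes. Pairs of libraries of a group differed by more than sampling noise (chi-square per degree of freedom at least 2.58). The genes and the lists were chosen with earlier results of these data known. All 38 genes are named, and of each further list at most 3 called genes in each direction, ranked by fold change, that reached 1 FPKM in a group. Coordinates are GENCODE 29 (GRCh38), matched for 99.42% of genes. As alternatives, the replicate number served as a block, single libraries were left out, and these settings were tried: pseudocount 1, no filter or at least 5 FPKM, median-ratio scaling, an FDR of 0.05, no trend or robust fitting, voom on recovered reads, and removal of GC and length trends (lowess, span 0.3) with and without the block. The procedure was tested on simulated data. Python 3.11.15, scipy 1.17.1 and matplotlib 3.10.9 were used for shares and plots.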

Additional observations from a re-analysis of the deposited data

How the results depend on the processing

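The counts of called mRNAs depended on the threshold and on the libraries. Of the 38 mRNAs, 9 rose and 8 fell in the reported analysis; with an FDR under 0.05 13 fell, and 13 also fell with the GC and length trends removed. Over all tested genes these settings called 5114 and 3958 in place of 2568. Leaving out a library gave 768 to 3400 genes in all, 6 to 9 members that rose, 4 to 10 that fell, and 8 to 15 further pathway genes that rose and 6 to 14 that fell; the lowest count of all genes was without MIR21-KO replicate 2 and the highest without MIR21-KO replicate 3. The cause was not tested.

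Same-numbered libraries did not deviate together (correlations of -0.171, -0.0177 and -0.0174, and 0 of 6 libraries correlated best with their own number). These values show no pairing by number, but they cannot tell whether same-numbered libraries were prepared together. With the replicate block 651 genes were called, 4 members rose and 3 fell, and 8 further pathway genes rose and 5 fell. The block leaves fewer degrees of freedom.

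Without MIR21-KO replicate 3, values moved by over 1.5 times for PFKL, ALDOA, TPI1, GAPDH, PKM and P4HA1, none of them called. No sign changed among the 35 tested members, and 9 of the 18 uncalled ones were called under at least 1 alternative. Median-ratio scaling gave 9 rises and 8 falls. Of 84 family shares recomputed, 0 reversed and 2 moved by more than the spread, both with recovered reads in place of FPKM. With ACGTG alone as the motif, 14 promoters of members held it in place of 26. At these depths mRNAs with few reads, such as HK2, PDK1, CA9 and EGLN3, cannot show changes of moderate size.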

Other observations

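Some members share sequence or position with other genes. For GAPDH, 62 pseudogenes were listed, 20 of them with a read, and together they held 0.263% to 0.343% of the reads of GAPDH. The pseudogenes of TPI1 held 1.28% to 1.85% and those of BNIP3 0.763% to 1.59% of the parent's reads, and the other members with listed pseudogenes had at most 0.654%. Genes annotated on the same strand overlap 16 members, SLC2A1, GPI, PFKM, PFKP, PFKFB3, PFKFB4, ALDOC, PGK1, ENO1, ENO2, LDHA, SLC16A3, HIF1A, EGLN3, P4HA1 and P4HA2. Among them PGK1 overlaps ATP7A, EGLN3 overlaps SPTSSA, ENO2 overlaps LRRC23 and PFKFB4 overlaps UCN2. How reads shared by such genes were counted is not known, so the values of all 16 are uncertain to that extent. Overlaps on the opposite strand were not searched for. As it is not known whether counting used the strand, the other members may have the same limit.

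VMP1, the gene in which MIR21 lies, measured 70.7 to 77.8 FPKM in Ctrl and 134.6 to 148.5 in MIR21-KO (log2 fold change 0.92, FDR = 0.000473, limma).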
